A study of Mus musculus with 6 samples.

Results

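The Notch pathway was examined in whole gastrocnemius, the large calf muscle, through 10 genes: the ubiquitin ligase Mib1, the ligands Dll1 and Jag1, the receptors Notch1, Notch2 and Notch3, the DNA-binding factor Rbpj and the target genes Hes1, Hey1 and Heyl. All probe sets that the platform's gene table gives to exactly 1 of these symbols were taken, which was 21 of 45101 probe sets on the array, for 10 of 18193 named genes. Mib1 entered the list because its signal was already known to be higher in aged muscle in these arrays, and the other genes because they belong to the same pathway. The change of Mib1 is therefore a description with no test, and counts over the members support nothing.

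Expression was measured with 6 Affymetrix mouse genome arrays, 3 of aged muscle (replicates 51, 52 and 53) and 3 of young muscle (replicates 1, 2 and 3). Both groups were male C57B1/6 mice with a normal karyotype, per the labels, with no transgene or treatment named. The labels used here give no age beyond aged and young. Separate animals are not stated either, so the spread between them may be technical, and the number of arrays limits the precision. Values are MAS5 signals, which are brightness on a linear scale with each array scaled to a mean of 1500 after trimming 2% at each end. Median signals of the arrays ran from 637 to 833. Correlations between 2 arrays over all probe sets lay between 0.66 and 0.75 on the log2 scale. Fibre markers were bright on every array, and 6 of 6 passed the filter on dim signal. The ratio of 3 prime to 5 prime signal of the Gapdh and actin controls, a measure of RNA quality, was 2.11, 2.00 and 2.86 (log2) on aged replicates 51, 52 and 53, against 1.71, 1.77 and 1.75 on young replicates 1, 2 and 3. Aged replicates 52 and 53 were washed on a second fluidics station, and the other arrays on the first. Every change given below with the station as a covariate therefore compares aged replicate 51 alone with the young arrays.

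Notch signalling passes between touching cells. A Delta or Jagged ligand on the sending cell is ubiquitinated by Mib1 and pulled into that cell with the help of epsins, and this pull exposes the bound Notch receptor to cleavage. The freed intracellular part joins Rbpj in the nucleus and switches on repressors of the Hes and Hey families. In skeletal muscle the pathway is known for keeping satellite cells, the muscle stem cells, quiescent, with ligands presented by the muscle fibre. Notch is also used by vessel walls, where Notch3 marks mural cells. These data come from whole muscle, so fewer cells of a type and less RNA per cell cannot be told apart.

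Promoters are shown for 3 genes named below: Notch2, with the one receptor probe set whose groups did not overlap, Rbpj, the factor that reads the signal, and Epn1, the epsin called higher. Each runs from 250 bases before to 50 bases after the start of transcription, taken from RefSeq, build GRCm38.p6. Capitals mark TGGGAA, the core that Rbpj binds, or its reverse complement TTCCCA. The search covered both strands.
Notch2, chr3:98013288-98013587, plus strand: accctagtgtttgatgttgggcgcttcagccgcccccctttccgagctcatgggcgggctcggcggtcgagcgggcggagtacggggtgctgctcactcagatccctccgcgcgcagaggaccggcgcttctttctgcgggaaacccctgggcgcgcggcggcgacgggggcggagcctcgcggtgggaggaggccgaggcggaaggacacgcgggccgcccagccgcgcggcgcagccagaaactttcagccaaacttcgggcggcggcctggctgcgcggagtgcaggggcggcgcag
Rbpj, chr5:53590096-53590395, plus strand: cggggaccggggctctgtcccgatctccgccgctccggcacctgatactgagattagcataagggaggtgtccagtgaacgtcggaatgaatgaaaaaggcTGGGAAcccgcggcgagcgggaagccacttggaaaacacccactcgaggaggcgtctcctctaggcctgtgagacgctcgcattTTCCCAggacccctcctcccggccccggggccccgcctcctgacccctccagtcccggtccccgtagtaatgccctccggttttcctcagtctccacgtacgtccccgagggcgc
Epn1, chr7:5079985-5080284, plus strand: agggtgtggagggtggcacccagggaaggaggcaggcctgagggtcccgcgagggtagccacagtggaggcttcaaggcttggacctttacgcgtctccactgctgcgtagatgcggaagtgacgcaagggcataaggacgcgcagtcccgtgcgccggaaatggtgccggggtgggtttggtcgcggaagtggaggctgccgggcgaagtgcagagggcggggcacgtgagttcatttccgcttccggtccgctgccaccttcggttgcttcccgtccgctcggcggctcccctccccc
In the Rbpj promoter the core lay at -149 on the strand of the gene and at -65 on the opposite strand, counted from the start of transcription. The window of another listed Rbpj start overlaps this one. Its 1 match, at -205 on the opposite strand, is the same TTCCCA as the one at -65. No match was present in the windows of Notch2 and Epn1. Of the 10 members 6 had a promoter sequence and 1 of them, Rbpj, held the core (16.7%), against 28.3% of all 27025 genes. Mib1, Hes1, Hey1 and Heyl had no sequence, so this share covers neither Mib1 nor a target gene. A match is a description of the letters and not a binding site.

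The sending side is described first. Mib1 is measured by 3 probe sets, and the brightest, 1454740_at, had signals of 17005, 19777 and 36108 in aged muscle, against 4470, 3225 and 2965 in young muscle. All aged arrays lay above all young arrays, and aged replicate 53 was the highest. The change, aged minus young on the log2 scale, was 2.72 ± 0.31 (limma's standard error, n = 3 per group), which is 6.57-fold.

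The second Mib1 probe set, 1451818_at, had signals of 2081, 1681 and 1784 in aged muscle, against 1417, 898 and 1629 in young muscle. Its groups did not overlap either, but the change was 0.53 ± 0.44. The third, 1433853_at, had 1670, 1803 and 1186 in aged muscle, against 928, 52.5 and 1228 in young muscle. Here the groups overlapped, since young replicate 3 lay above aged replicate 53, and young replicate 2 was far below the others. The change was 1.97 ± 1.06, and it was 0.52 without young replicate 2 and 2.79 without young replicate 3. The platform's table builds 1433853_at and 1454740_at on the same expressed sequence record, so these probe sets share a source, yet they differed in brightness and in how the groups separated.

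Aged replicate 53, where Mib1 1454740_at was highest, also had the highest ratio of 3 prime to 5 prime control signal. With that ratio as a covariate the Mib1 change was 2.06, without aged replicate 53 it was 2.39, and within the first fluidics station it was 2.28. In that last comparison aged muscle is represented by replicate 51 alone. Marker genes of fat cells moved with the groups as well. Their summed signal was 149869 to 255188 in aged muscle and 73426 to 85411 in young muscle. All 5 measured changes were positive, and 3 of 5 were called higher (limma, adjusted p under 0.05), beside 0.391% of all genes tested. The part of RNA quality or of fat cells in the Mib1 signal was not tested beyond these values.

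**Figure D1:**
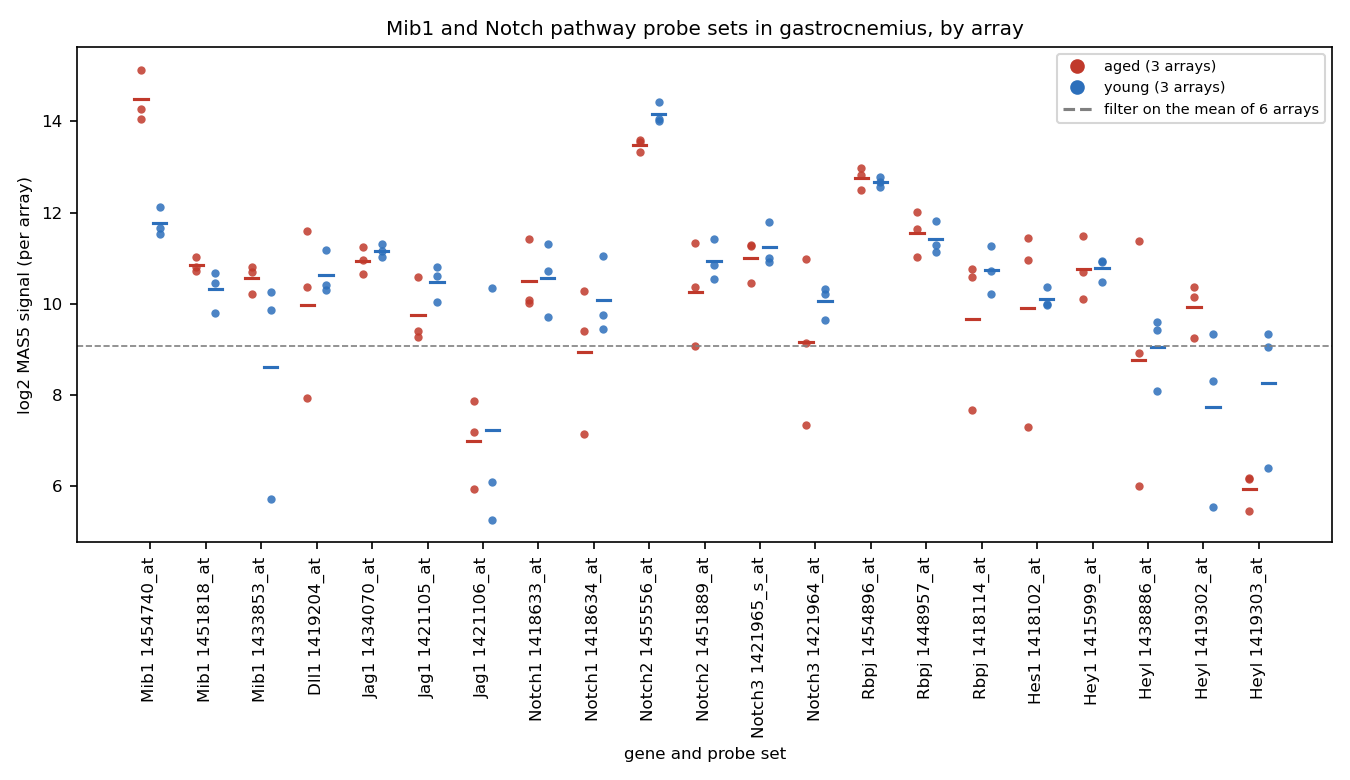
The log2 MAS5 signal of each of the 21 probe sets, 1 point per array, with aged arrays left of young arrays and a line at each group's mean; the dashed line is the filter on the mean of 6 arrays. Mib1 1454740_at stands high on all 3 aged arrays, Notch2 1455556_at stands lower on all 3 aged arrays, and most other probe sets overlap.

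Neither ligand gene was called, and the sign of Dll1 changed with the fit. Dll1, a Delta ligand, had signals of 3109, 1318 and 246 in aged muscle, against 1369, 2326 and 1268 in young muscle. The aged arrays held both the highest and the lowest value, and the change was -0.67 ± 0.78. Its sign rested on aged replicate 53, without which the change was 0.35. It was 0.97 with the station as a covariate and 1.37 with the RNA quality covariate.

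Jag1, a Jagged ligand, was measured by 3 probe sets. The brightest, 1434070_at, had 2444, 1982 and 1602 in aged muscle, against 2529, 2087 and 2279 in young muscle. The groups overlapped and the change was small, at -0.21 ± 0.36 (0.09 with the station and 0.10 with the RNA quality covariate). The next, 1421105_at, had 619, 675 and 1530 in aged muscle, against 1797, 1058 and 1566 in young muscle (-0.74 ± 0.56). Both of its lowest values were aged, while aged replicate 53 lay among the young arrays. With the RNA quality covariate the change was -1.58. The third, 1421106_at, was below the filter on dim signal on average and ran from 61.5 to 232 in aged muscle and from 38.4 to 1298 in young muscle.

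On the receiving side, Notch2 had the one receptor probe set whose groups did not overlap. With Mib1 left out, this was 1 of 14 tested member probe sets, against a background of 16.2%. Its brighter probe set, 1455556_at, had signals of 10355, 12277 and 11962 in aged muscle, against 22149, 16471 and 16982 in young muscle. Every aged array lay below every young array, and the values within each group were close together. The change was -0.68 ± 0.22, with a 95% interval of -1.15 to -0.20, and it was not called after adjustment over all tested probe sets. It ranged from -0.54 to -0.75 with 1 array left out, and was -0.70 with the RNA quality covariate and -0.83 within the first station. The dimmer Notch2 probe set, 1451889_at, had 1315, 537 and 2591 in aged muscle, against 1490, 1847 and 2747 in young muscle. Its groups overlapped and its change was -0.68 ± 0.57. That value rested on single arrays, since it was -0.09 without aged replicate 52, -1.22 without aged replicate 53 and -1.94 with the RNA quality covariate.

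Fibroblast markers were lower in aged muscle beside Notch2. Their summed signal was 104011 to 109024 in aged muscle and 555606 to 831059 in young muscle. All 8 measured changes were negative, and 5 of 8 were called lower, beside 1.00% of all genes tested. The young sums were mostly Col1a1 (221270 to 501199) and Col3a1 (148680 to 161853), which had 4488 to 8267 and 8421 to 13050 in aged muscle. The fibroblast marker Pdgfra was at -0.23 with overlapping groups. The sum over smooth muscle and pericyte markers was 72862 to 85755 in aged muscle and 107385 to 117425 in young muscle, with 1 of 8 called, lower. Their directions were mixed, with 3 of 8 changes positive, and groups did not overlap for 1 higher and 2 lower genes. The lower ones were Acta2 (26245 to 29240 in aged muscle, 49145 to 59933 in young muscle) and Rgs5 (10225 to 20984, against 28869 to 35216). The higher one was Abcc9 at 0.59 on its brightest probe set, while its other tested ones were at -0.43 and -0.70 with overlapping groups. Satellite cell markers summed to 12310 to 17580 in aged muscle and 16563 to 17486 in young muscle, with 0 of 7 called (limma, 2 at an unadjusted p under 0.05). They had no common direction: 4 of 7 changes were positive, with a median of 0.49, and groups did not overlap for 2 higher and 2 lower genes. Over all genes tested, groups did not overlap for 17.2%, both directions together. The 2 at an unadjusted p under 0.05 were Itga7 at 1.62 and Sdc4, the brightest of the list, at -0.74. Fibre markers summed to 1236020 to 1475820 in aged muscle and 1740600 to 2129150 in young muscle, with 0 of 6 called (5 at an unadjusted p under 0.05). The part of these cells in the Notch2 signal was not tested.

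Notch1, a receptor active in satellite cells and endothelium, had no shared pattern over its probe sets. Probe set 1418633_at had 1090, 1031 and 2756 in aged muscle, against 1681, 2536 and 837 in young muscle (-0.07 ± 0.56). Probe set 1418634_at had 143, 1247 and 676 in aged muscle, against 2105, 696 and 858 in young muscle (-1.13 ± 0.90). The groups overlapped on both, and the lowest aged array was replicate 52 on one and replicate 51 on the other. The change of 1418633_at ran from -0.53 to 0.30 with 1 array left out and was -1.06 with the RNA quality covariate. That of 1418634_at was -0.23 without aged replicate 51 and -2.92 with the station as a covariate. The sum of 8 endothelial markers was 15005 to 19641 in aged muscle and 19702 to 22337 in young muscle, with 0 called (limma, 0 at an unadjusted p under 0.05) and a median change of -0.17.

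Notch3, the receptor of mural cells, overlapped on both probe sets. Probe set 1421965_s_at, of a kind that can match related transcripts, had 2525, 2480 and 1409 in aged muscle, against 1940, 2060 and 3550 in young muscle (-0.23 ± 0.41). Probe set 1421964_at had 2037, 562 and 162 in aged muscle, against 800, 1284 and 1182 in young muscle (-0.90 ± 0.89). Aged replicate 53 was the lowest aged array on both, and without it the change of 1421964_at was 0.0039. Without aged replicate 51 it was -1.82, and it was 0.93 with the station and 0.87 with the RNA quality covariate.

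Rbpj, the factor to which the cleaved receptor binds, had small changes on its bright probe sets. Probe set 1454896_at had 5774, 7251 and 8052 in aged muscle, against 7005, 6558 and 6094 in young muscle. The young arrays fell inside the range of the aged arrays, and the change was 0.09 ± 0.25, with a 95% interval of -0.45 to 0.63. With the station as a covariate it was -0.18. Probe set 1448957_at had 4138, 2085 and 3184 in aged muscle, against 2243, 2514 and 3614 in young muscle (0.14 ± 0.37, and 0.60 with the station as a covariate). The dimmest, 1418114_at, had 1533, 205 and 1727 in aged muscle, against 2467, 1184 and 1699 in young muscle, and its change of -1.06 ± 0.76 came with 1 low array, aged replicate 52, without which it was -0.07.

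The target genes gave no common direction. Hes1, a repressor switched on by Notch in many tissues, had 2800, 1984 and 157 in aged muscle, against 1331, 1019 and 1004 in young muscle. A pair of aged arrays lay above all young arrays and aged replicate 53 lay far below them. The change was -0.21 ± 0.92, and it was 1.09 without aged replicate 53, 1.34 with the station and 2.53 with the RNA quality covariate. Hey1, a related repressor, had 2858, 1662 and 1107 in aged muscle, against 1978, 1432 and 1946 in young muscle. Its groups overlapped, and the change was -0.02 ± 0.45. It ran from -0.38 to 0.30 with 1 array left out, and was 0.69 with the station and 0.63 with the RNA quality covariate.

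Heyl, a Hey family member, was dim on all of its 3 probe sets, which were below the filter and were not tested. Probe set 1419302_at had 1317, 611 and 1134 in aged muscle, against 317, 47.0 and 649 in young muscle (2.19 ± 1.10). Probe set 1419303_at, built on the same sequence record, had 72.5, 71.4 and 43.7 in aged muscle, against 645, 84.2 and 535 in young muscle (-2.34 ± 1.11). These neighbours pointed in opposite directions. The third, 1438886_at, spanned 64.5 to 2677 in aged muscle and 273 to 780 in young muscle, with a change of -0.27 ± 1.18. No direction can be read for Heyl from these values.

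**Figure D2:**
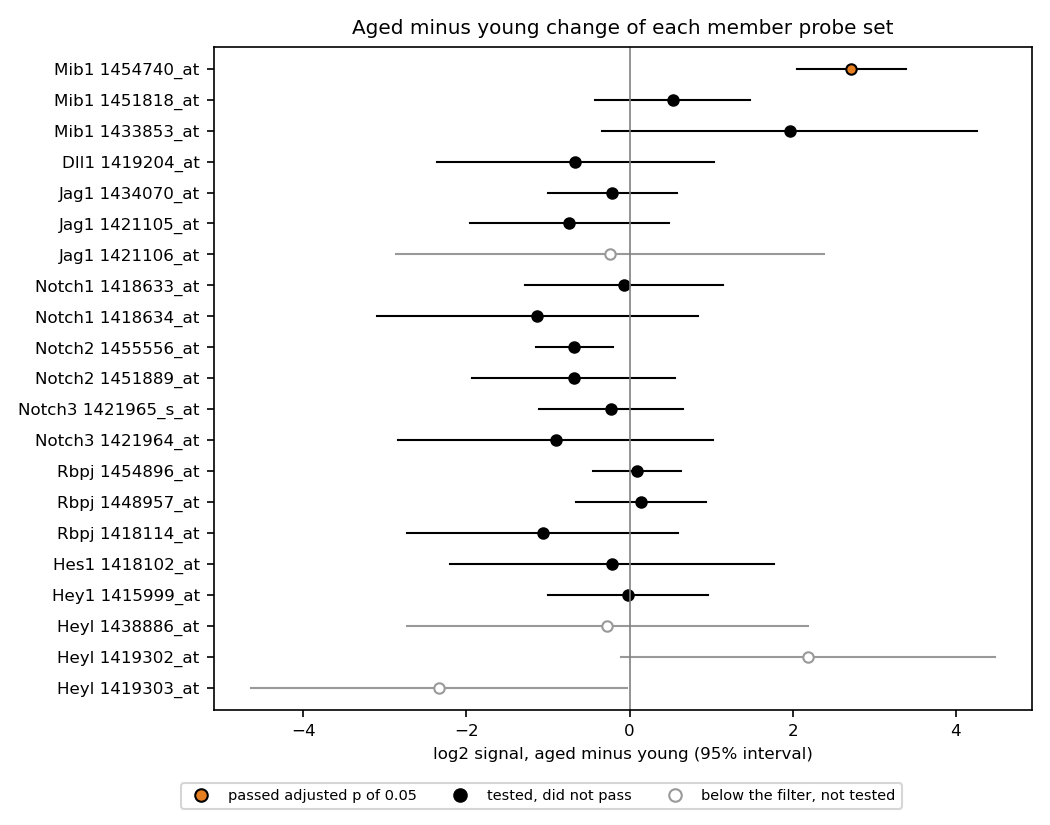
The change of each of the 21 probe sets, aged minus young on the log2 scale (points), with limma's 95% interval (bars); orange marks the probe set that passed the adjusted p, and open circles mark those below the filter. Mib1 1454740_at stands at 2.72, Notch2 1455556_at at -0.68, and the Heyl probe sets lie on both sides of 0.

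Set against all probe sets, 17 of the 21 passed the filter on dim signal, and 1 of the 17 was called, Mib1 1454740_at, against a background of 1.05% of the 22519 tested. With limma's spread not tied to brightness (eBayes without trend) 0 of the 17 were called, and 1 had an unadjusted p under 0.05. Groups did not overlap on 3 of the 17, and on 1 of the 14 left without Mib1, against a background of 16.2%. Leaving out Mib1, 0 of 14 were called by limma with Benjamini-Hochberg adjustment, and 1 had an unadjusted p under 0.05, Notch2 1455556_at. The changes of these 14 had a median of -0.45, beside 0.0079 over all tested probe sets, and 12 of 14 were negative, beside 49.5% of all. That lean depended on aged replicate 53: without it 8 of 14 were negative with a median of -0.04, within the first station 7 of 14 were, and with the RNA quality covariate 8 of 14. The counts were 13 of 14 with each array centred on its median and 12 of 14 after quantile normalization.

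The precision of the members varied with their brightness. The upper bounds of the 95% intervals of the 14 lay between -0.20 and 1.78. The highest upper bound was 3.44 in an unmoderated linear model, 3.98 with the station as a covariate and 4.36 with the RNA quality covariate. A relation of the members to Mib1 across the 6 arrays could not be tested, because Mib1 splits them into separate groups of 3.

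Genes with arrays most like those of Mib1 were also looked up. Among 18602 tested probe sets of named genes outside the pathway, the 5 genes nearest to Mib1 1454740_at were chosen by the root mean square distance of their log2 signals, each centred on its mean over the 6 arrays. Asb15, an ankyrin repeat protein of skeletal muscle, was the nearest at a distance of 0.18. It had 17515, 19362 and 40226 in aged muscle, against 5975, 4300 and 3822 in young muscle, so its arrays ranked as those of Mib1 did.

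The amylase gene Amy1 (0.279), the surface glycoprotein gene Cd24a (0.279), the carboxylesterase gene Ces1d (0.33) and the muscle ubiquitin ligase gene Fbxo32 (0.34) came next. Their changes were 2.54, 2.21, 3.17 and 2.86 in that order, and aged replicate 53 was the highest array for all 4. The other tested Asb15 probe set was at 1.51, those of Cd24a at 1.99 and 2.24, those of Ces1d at 1.42 and 1.58, and that of Fbxo32 at 0.82. The other Mib1 probe sets were farther from 1454740_at than these genes, at 1.20 for 1451818_at and 1.55 for 1433853_at. Since likeness over these arrays is mostly the difference between the groups, no test is given.

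**Figure D3:**
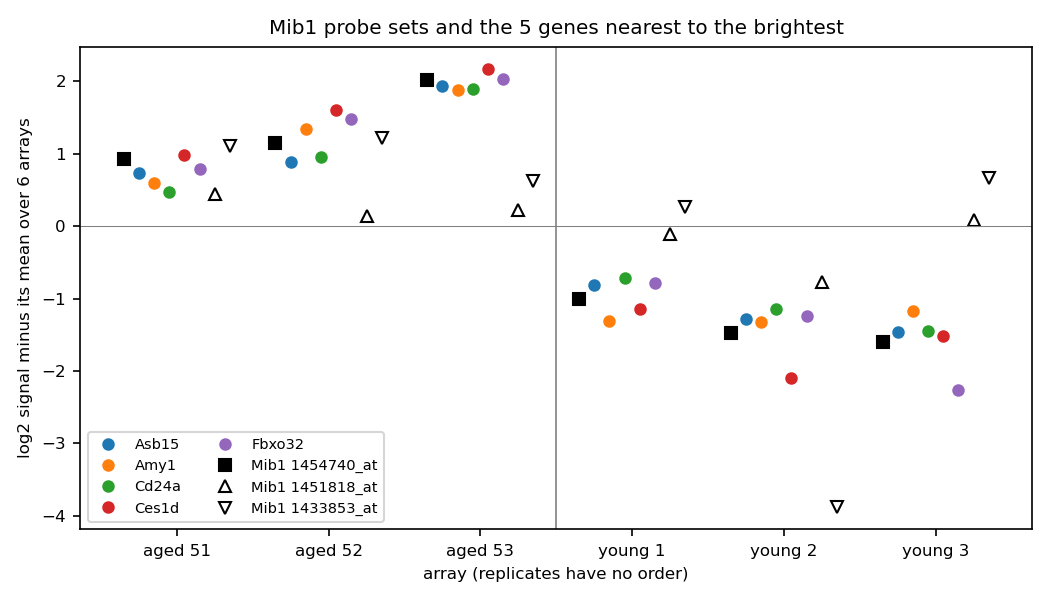
Log2 signal on each array minus the mean over the 6 arrays, for the 3 Mib1 probe sets (black) and the 5 genes nearest to the brightest of them (colours); replicates have no order. The colours, picked for this likeness, follow the filled squares of Mib1 1454740_at and are highest on aged replicate 53. The open triangles of the other Mib1 probe sets, which were not picked for it, do not.

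Other genes of the pathway were taken from a list of 70, of which 65 were named on the array and 55 were above the filter, with the brightest probe set standing for a gene. Of the 55, 1 was called higher, 1 was called lower and 53 did not pass, against a background of 0.391% higher and 1.00% lower over the 11763 genes tested. At an unadjusted p under 0.05 there were 5 of the 55, beside 1338 of the 11763. Groups did not overlap for 5, against a background of 17.2%. The median change was -0.03, beside 0.0028 over all genes tested. The list was chosen with earlier results of these data known, so its counts are a description.

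**Figure D4:**
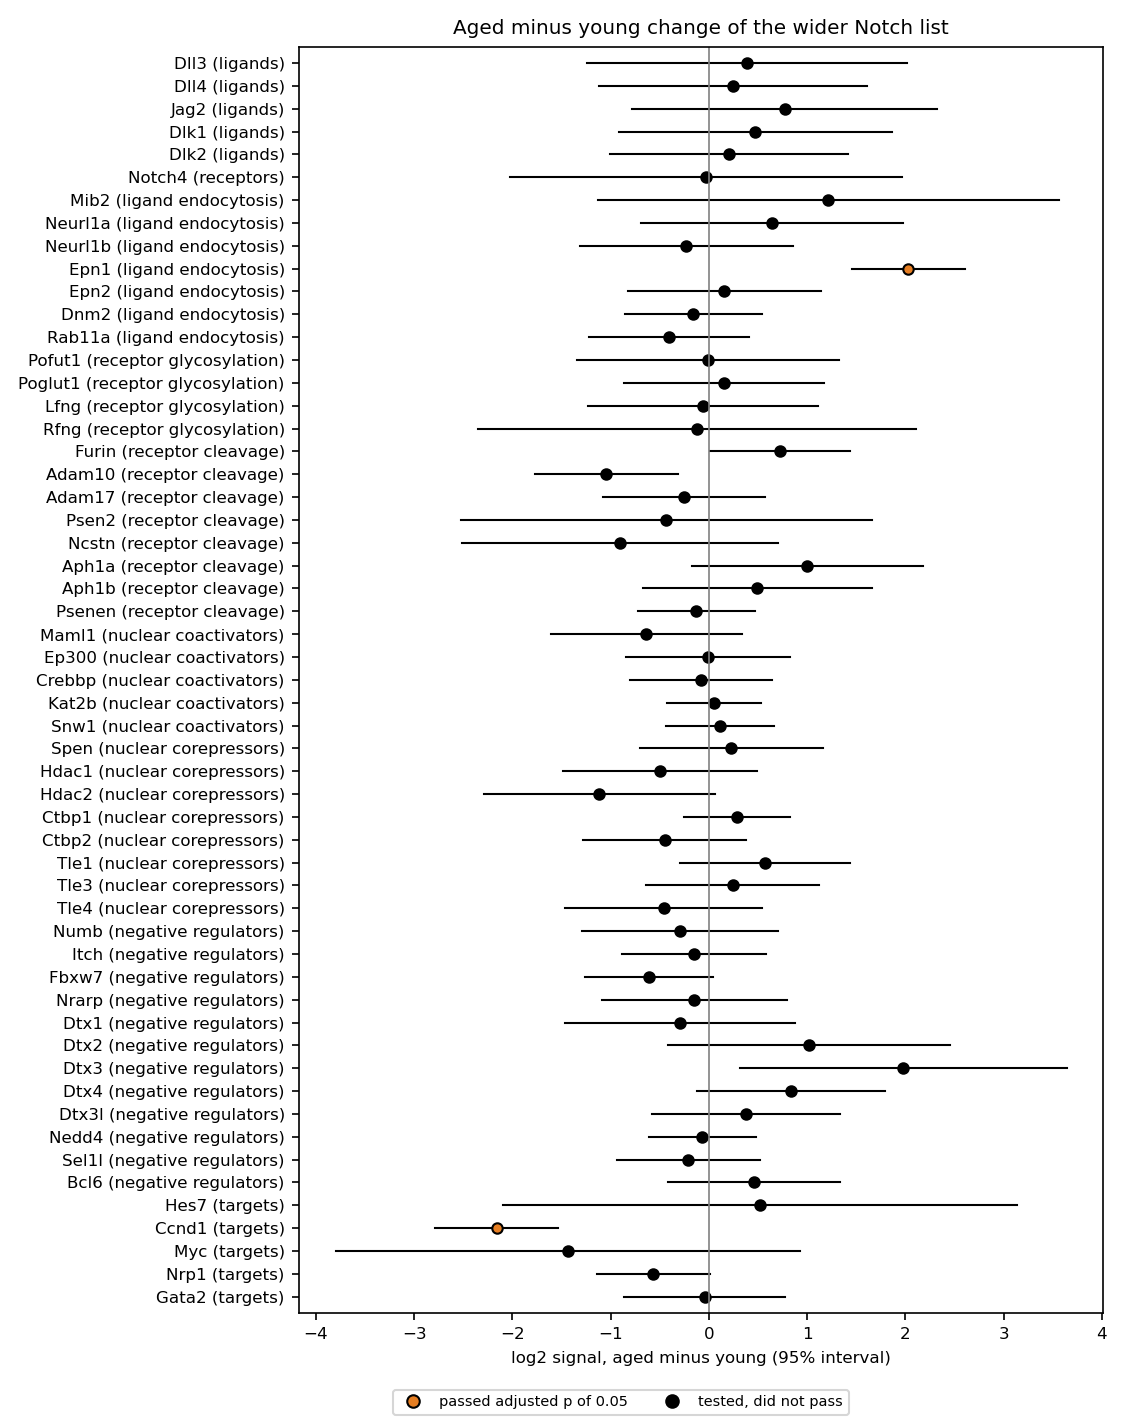
The change of each of the 55 measured genes of the wider pathway list, aged minus young on the log2 scale (points), with limma's 95% interval (bars), grouped by role. Epn1 at 2.03 and Ccnd1 at -2.16, in orange, passed the test.

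The gene called higher was Epn1, epsin 1, an adaptor that carries ubiquitinated cargo such as Notch ligands into clathrin-coated pits. It had signals of 13154, 12631 and 10512 in aged muscle, against 2640, 2582 and 3750 in young muscle. The arrays within each group were close, and the groups were far apart. The change was 2.03 ± 0.27, which is 4.09-fold (limma, Benjamini-Hochberg adjusted p = 0.00191). Within the first station, where aged muscle is represented by replicate 51 alone, it was 2.16. With the RNA quality covariate it was 2.23 (limma adjusted p = 0.0294). That covariate cannot separate RNA quality from age, because its ratio was higher on every aged array than on every young array. Epn1 had 1 probe set, so no other probe set could be set beside it, and it did not pass with the spread not tied to brightness (adjusted p = 0.185). Unlike Mib1, it was lowest among the aged arrays on replicate 53.

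No other gene of ligand endocytosis passed, with 1 of 7 called. Mib2, the relative of Mib1, was at 1.22 ± 1.08 with overlapping groups, and without young replicate 3 its change was -0.11. The 5 other ligand genes had changes from 0.21 to 0.77, and 0 passed (limma, 0 at an unadjusted p under 0.05). With the station as a covariate, or without aged replicate 51 or 52, 3 of the 5 were positive. Jag2, a second Jagged ligand, was at 0.77 ± 0.71, and Dlk1, an atypical ligand without the domain that activates Notch, at 0.47 ± 0.64. The remaining receptor, Notch4 of endothelium, was at -0.03 ± 0.92, and at -1.03 on its other tested probe set.

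Among the 8 measured genes of receptor cleavage 0 passed (limma, 2 at an unadjusted p under 0.05). Adam10, the protease that makes the first ligand-induced cut in Notch, had signals of 3068, 3093 and 6986 in aged muscle, against 9272, 7318 and 8589 in young muscle. All aged arrays lay below the young ones, with aged replicate 53 close to them. The change was -1.05 ± 0.34 (limma adjusted p = 0.263), and without aged replicate 53 it was -1.44 (adjusted p = 0.0199), while the other alternatives had adjusted p between 0.0521 and 0.593. These Adam10 values are from 1428103_at. Its other probe sets were below the filter and not tested: 1450104_at at 0.30, 1460083_at at 0.34 and 1450105_at at -2.01. Aph1a, a subunit of gamma-secretase, which makes the final cut, had probe sets in both directions. The brightest was at 1.00 ± 0.54 with overlapping groups, another at 0.49 with aged above young, and 1424980_s_at at -0.79 with all aged arrays below all young ones. The brightest probe sets of the 4 measured genes that add or extend sugars on the receptor lay between -0.12 and 0.16, while the other tested probe set of Rfng was at 2.84 ± 1.17 with overlapping groups.

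In the nucleus 0 of 5 coactivators and 0 of 8 corepressors passed (limma, 0 of each at an unadjusted p under 0.05). Maml1, which completes the active complex, was at -0.64 ± 0.45 (-1.94 on its other tested probe set), and the splicing and transcription cofactor Snw1 at 0.11 ± 0.25. The histone deacetylase gene Hdac2 was at -1.11 ± 0.54 on its brightest probe set and at 1.23 ± 0.75 on its other tested one, so it had no common direction. The Groucho family corepressor Tle1 was at 0.57 ± 0.40 and at -0.12 on its other tested probe set. Of 12 measured negative regulators 0 passed (limma, 1 at an unadjusted p under 0.05). On the brightest probe sets, the largest changes were those of the Deltex ubiquitin ligases Dtx3 (1.98 ± 0.76, limma adjusted p = 0.39) and Dtx2 (1.02 ± 0.66). Groups overlapped for both. Nrarp was at -0.15 on its brightest probe set and at 1.68 ± 0.83, with aged above young, on its other one.

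The gene called lower was Ccnd1, cyclin D1, which drives entry into the cell cycle and is listed as a Notch target in several cell types. It had 2064, 2091 and 2986 in aged muscle, against 12082, 8297 and 11512 in young muscle. The change was -2.16 ± 0.29, which is 4.47-fold higher in young muscle (limma adjusted p = 0.00223), and with the spread not tied to brightness it did not pass (adjusted p = 0.179). Within the first station it was -2.35 and with the RNA quality covariate -2.51. All 3 of its probe sets were lower without overlap, but the others were not called. They were at -1.45 (limma adjusted p = 0.316) and -1.82 (limma adjusted p = 0.365). Ccnd1 is expressed by many dividing cells, and the fibroblast sums given above, mostly Col1a1 and Col3a1 in young muscle, moved the same way. The part of fibroblasts in the Ccnd1 signal was not tested. Of the other 4 measured targets 0 passed (limma, 0 at an unadjusted p under 0.05), among them Myc (-1.44 ± 1.09). Of the further Hes and Hey genes on the list, Hes5, Hes6 and Hey2 were below the filter. Hes7 was above it, at 0.52 ± 1.20 with overlapping groups.

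**Figure D5:**
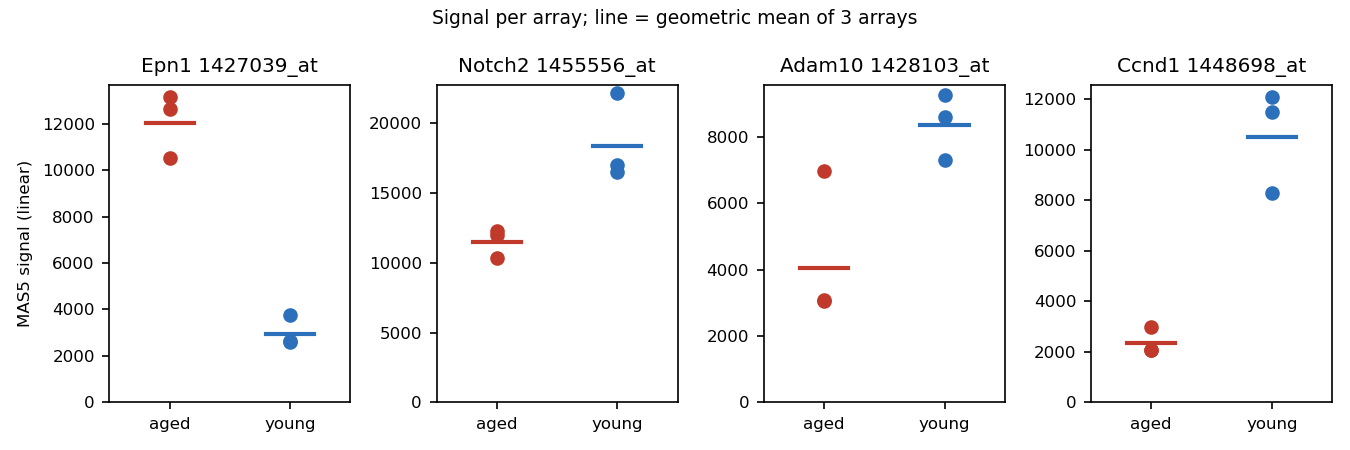
MAS5 signal on a linear axis for each array (points) with the geometric mean of 3 arrays (lines), for Epn1, Notch2, Adam10 and Ccnd1, aged left of young. Epn1 is higher on all 3 aged arrays and Notch2, Adam10 and Ccnd1 are lower on all 3, with aged replicate 53 of Adam10 nearest to the young arrays.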

How the data were processed

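Total RNA was labelled with biotin and hybridised to 1 Affymetrix array per sample, per the labels' protocols. The authors deposited 1 linear intensity per probe set. MAS5 made them, per the submitters' processing notes, and its version is not given in the sources used. Scaling to a trimmed mean of 1500 was read from the values and assumes that this mean is alike in all samples. Dim MAS5 signals vary more on the log2 scale.

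Deposited intensities were taken to log2 with no pseudocount. The 64 control probe sets and those whose mean log2 signal fell under the median of 9.08, which is a signal of 540, were dropped, which kept 22519. The comparison of aged with young muscle used limma 3.58.1 under R 4.3.3 (lmFit, eBayes with trend, two-sided, Benjamini-Hochberg over all tested probe sets, threshold 0.05), and the steps were tested on simulated data. Genes were named from the platform's table, and 0 symbols changed when matched to RefSeq by gene ID. Figures used matplotlib 3.10.9.

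Members, lists and tests were chosen with earlier results of these data known. Named were all members, of the wider list the called genes and the 2 largest changes per role, and the 5 genes nearest to Mib1. Hes5, Hes6, Hes7, Hey2 and Nrarp were named after their values were seen. Alternatives covered normalization, filter, pseudocount, eBayes settings, array weights, fluidics station, RNA quality, probe sets prone to cross-hybridisation and each array left out. Other marker lists, not used beside a result above, were macrophages (0 of 5 measured called), lymphocytes (1 of 3, higher), Schwann cells (2 of 4, lower) and blood (0 of 1). Over all genes tested 0.391% were called higher and 1.00% lower.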

Additional observations from a re-analysis of the deposited data

How the results depend on the processing

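The calls rested on the spread being shared across probe sets of like brightness. With eBayes without the trend the probe sets called were 21 in place of 237, and with an unmoderated linear model 0 (1985 at an unadjusted p under 0.05), and under both the member probe sets called and the wider list genes called were 0, with Epn1 at adjusted p 0.185 and 0.166 and Ccnd1 at 0.179 and 0.185. At an unadjusted p under 0.05 these fits kept 1 and 2 member probe sets and 3 and 3 wider list genes. With the RNA quality covariate 138 probe sets were called and the Mib1 change was 2.06, and without probe sets prone to cross-hybridisation 136 were called. With 1 array left out the count ran from 124 (without young replicate 2) to 342 (without aged replicate 53); it was 131 without young replicate 1, 152 without young replicate 3 and 149 without aged replicate 52. The Mib1 change ran from 2.39 to 2.93 with 1 array left out. The wider list count ran from 2 to 3, and the third gene, without aged replicate 53, was Adam10. All other alternatives gave 2 wider list genes, leaving aside the station covariate, under which aged muscle is represented by replicate 51 alone. The one member call was that of Mib1, whose change chose it, so its count across alternatives supports nothing.

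Signs turned for changes that had not passed, some of them not small. Among the members these were Dll1, Jag1 1434070_at, Notch1 1418633_at, both Notch3 probe sets, Rbpj 1454896_at and 1448957_at, Hes1 and Hey1. Rbpj 1448957_at ran from -0.08 to 0.41 with 1 array left out and Notch3 1421965_s_at from -0.39 to 0.05, with 0.34 under the RNA quality covariate; values of the others stand beside their results. Notch4 was at 0.0308 with a pseudocount and 1.09 with the station as a covariate, and ran from -0.60 to 0.55 with 1 array left out. Poglut1, which adds sugar to the receptor, was at -0.73 with the station and ran from -0.21 to 0.60, and Rfng, which extends such sugars, was at 0.12 with array weights, 0.18 with the RNA quality covariate, and ran from -0.74 to 0.56. Snw1 was at -0.0015 after median centring and ran from -0.0677 to 0.29, Mib2 ran from -0.11 to 1.97 and Dlk1 from -0.21 to 1.01. Median centring moved the median change of all tested probe sets to -0.11. The causes were not tested. No paired analysis was possible because the groups share no replicate number.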
